A study of Rattus norvegicus with 24 samples.

Results

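The genes described here are Stat3 and 3 genes of the acute phase response that lie downstream of it, Socs3, A2m and Lcn2, in the left ventricle of the rat after spinal cord injury. They were picked by 4 Ensembl gene IDs, and their symbols come from that choice, because the deposited counts carry IDs without symbols. Of the 4 IDs, 3 are among the 23098 analysed in the series: Stat3 (ENSRNOG00000019742), A2m (ENSRNOG00000028896) and Lcn2 (ENSRNOG00000013973). Socs3 (ENSRNOG00000002946) was not analysed here. Stat3 and Lcn2 passed the filter on low counts that left 15065 genes for testing, and A2m did not.

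STAT3 is a transcription factor that lies inactive in the cytoplasm until cytokines of the interleukin-6 family bind receptors that contain gp130. Janus kinases then phosphorylate it, and it enters the nucleus as a dimer and drives its target genes, its own gene among them. SOCS3 is an inhibitor induced by the pathway that feeds back on the receptor and its kinases. Alpha-2-macroglobulin, the product of A2m, is a plasma protease inhibitor and a classic acute phase protein of the rat, made mainly by the liver. Lipocalin-2, the product of Lcn2, binds bacterial siderophores and so withholds iron from microbes; it is made by neutrophils, epithelia and other cells under inflammatory signals. In the heart, STAT3 signalling is known for its part in cardiomyocyte survival and in the response to injury. The level of Stat3 RNA does not report the phosphorylation of the protein.

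RNA was sequenced from flash-frozen tissue of the left ventricular free wall of male Wistar rats, in 4 groups of 6 libraries. The sham group had its dura opened at high thoracic level with the cord left intact, and its hearts were collected at 7 days. The other groups had the cord completely transected at high thoracic level (spinal cord injury, SCI) and were collected at 1 day, 3 days or 12 weeks. Every group had surgery, no genotype or drug is named in the labels, and sham tissue was not taken at any of the times of the injured groups. In each comparison with sham, injury therefore cannot be told apart from time since surgery and any difference in age that goes with it. Among the injured groups, time since injury and such a difference in age cannot be told apart either. Nothing in the labels says that the libraries of a group came from separate rats, so the p-values speak for the spread among these libraries, part of which may be technical. In ventricle measured in bulk, more cells of a type that makes a gene and more RNA per cell cannot be told apart.

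The libraries held 15002476 to 70340174 counts. The labels number the sham and 3 day libraries 57 to 68 and the 1 day and 12 week libraries 77 to 88, so a difference between those runs of numbers and the group cannot be told apart, except for 3 days against sham and 12 weeks against 1 day. Over the genes tested, 12 week replicate 3 had the lowest mean correlation with the rest of its group among the 24 libraries, 0.968 where the highest was 0.989, and the lowest scaling factor, 0.879. It held 33248851 counts, within the range of its group. This library had the highest level of Stat3, Lcn2 and A2m at 12 weeks, and the results that moved most without it are given with and without it. Levels are in CPM, the counts of a gene per 1e6 counts of its library, after scaling libraries with trimmed-mean (TMM) factors. They are not divided by gene length, so that only levels of the same gene are compared. Marker genes of the ventricle and of other cell types, and the other genes of the pathway, were not analysed here, because no table used here pairs their symbols with the IDs, so the part of cell composition in the results was not tested.

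The upstream regions of Stat3 and Lcn2 are shown because these genes differed between groups and fell in much the same order over the 12 week libraries. Each sequence is the 250 bases before the gene's start in RefSeq, assembly GRCr8, read 5′ to 3′ along the gene's own strand. Of the members with counts, 2 had an entry. The windows are chr10:86363360-86363609 on the minus strand for Stat3 and chr3:36081781-36082030 on the minus strand for Lcn2. Capitals mark a match to a searched motif.
Stat3: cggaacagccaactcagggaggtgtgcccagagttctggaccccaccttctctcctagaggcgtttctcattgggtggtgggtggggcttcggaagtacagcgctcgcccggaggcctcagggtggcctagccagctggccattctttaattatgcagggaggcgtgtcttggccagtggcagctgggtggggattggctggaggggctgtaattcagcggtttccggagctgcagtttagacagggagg
Lcn2: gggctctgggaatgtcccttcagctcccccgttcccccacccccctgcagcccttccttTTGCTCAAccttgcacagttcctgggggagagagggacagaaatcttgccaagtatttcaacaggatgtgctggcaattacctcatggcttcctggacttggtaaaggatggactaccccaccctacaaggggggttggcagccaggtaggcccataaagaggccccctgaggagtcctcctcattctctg
The STAT motif TTCNNNGAA, searched on both strands, had no match in either window and matched 7.67% of the 33469 RefSeq windows of the same length. The NF-kB motif (GGGA, any base, then TTTCC; both strands) had no match in either and matched 0.314% of all windows. The C/EBP motif TTGCNNAA matched 9.22% of all windows and was found once in Lcn2, as TTGCTCAA from base 191 to base 184 before the start. C/EBP factors are known as partners of STAT3 at acute phase genes. A match describes the letters only. Sequences that differ from a motif by any fixed letter were not searched for, so the absence of a match covers only these exact motifs in this window.

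Stat3, the transcription factor of the set, was higher at 12 weeks after transection than in every other group. Sham libraries lay between 195 and 242 CPM with a median of 209 CPM, on counts of 5504 to 14183 per library. At 12 weeks the lowest library had 250 CPM, the median was 330 CPM and the highest had 678 CPM. The lowest injured library at 12 weeks therefore stood above the highest sham library, and the groups did not overlap. The mean was 381 ± 158 CPM at 12 weeks against 212 ± 17.1 CPM in sham (SD, n = 6 each). The fitted log2 fold change was 0.84 (SE 0.168), a rise of 1.79-fold, with an adjusted p of 0.000863 by edgeR's quasi-likelihood test and 6 of 6 libraries above the sham mean. In this comparison 11.3% of all genes tested were called higher, and 4.38% were higher with no overlap. A larger change in either direction was fitted for 6.87% of the genes tested. Without 12 week replicate 3 the log2 fold change was 0.60 (edgeR adjusted p = 0.00086).

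At the acute times Stat3 stood nearer to sham. At 1 day the libraries lay between 185 and 293 CPM with a median of 262 CPM and a mean of 254 ± 38.8 CPM (SD, n = 6). In all, 5 of the 6 libraries were above the sham mean, but replicate 6, at 185 CPM, was below every sham library. The log2 fold change was 0.26 (SE 0.167, 95% interval -0.09 to 0.61) and was not called (edgeR adjusted p = 0.273), in a comparison that called 11.9% of genes higher. With only the 1 day and sham libraries in the fit the value was 0.27 and was called (edgeR adjusted p = 0.0418). At 3 days the libraries lay between 196 and 269 CPM with a median of 208 CPM and a mean of 218 ± 27.1 CPM (SD, n = 6). This range overlapped that of sham, with replicate 3 alone above every sham library and 2 of 6 libraries above the sham mean. The log2 fold change was 0.03 (SE 0.167, 95% interval -0.31 to 0.38; edgeR adjusted p = 0.916), and this comparison called 8.88% of genes higher.

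**Figure D1:**
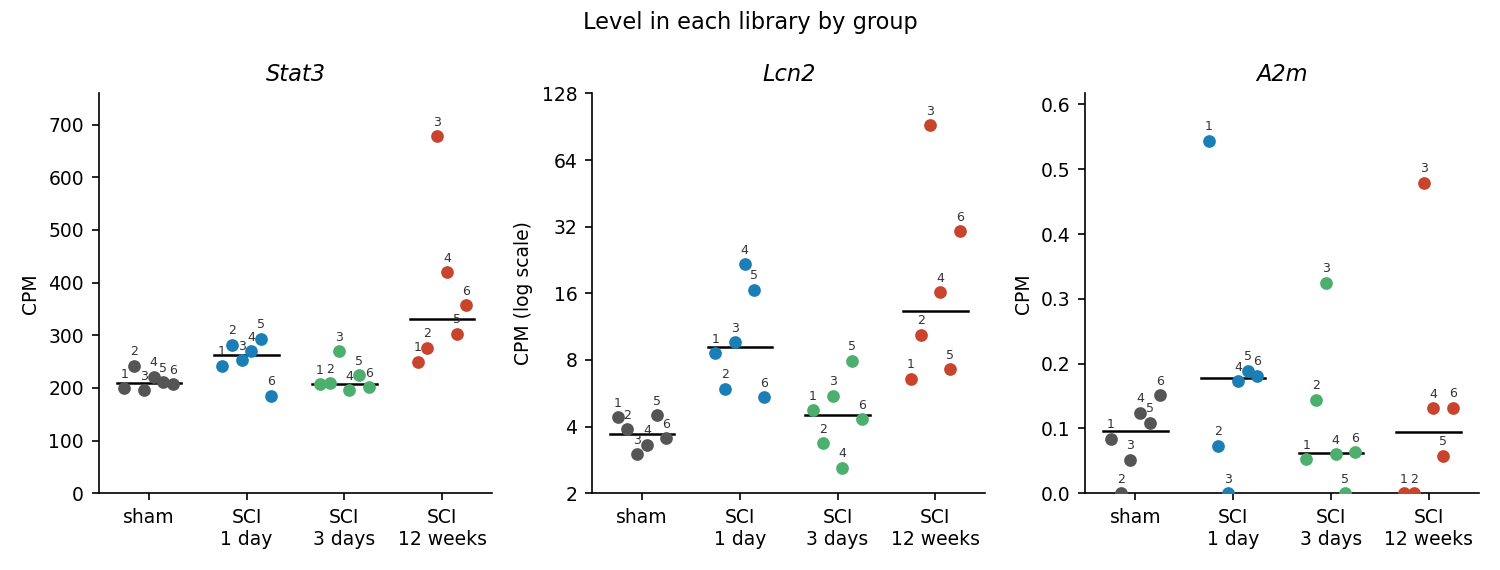
Level of Stat3, Lcn2 and A2m in CPM in each of the 24 libraries, by group; points are libraries with their replicate number, black lines are group medians, and the Lcn2 axis is a log scale. Replicate 3 is the highest library at 12 weeks for each gene, and for Stat3 and Lcn2 all 12 week libraries lie above all sham libraries.

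Between the injured groups, Stat3 was higher at 12 weeks than at 1 day by a log2 fold change of 0.58 (SE 0.167; edgeR adjusted p = 0.00902), with 5 of 6 libraries above the 1 day mean. Both groups lie in the run of library numbers from 77 to 88. The groups overlapped, and the comparison called 17.8% of genes higher. Without 12 week replicate 3 the value was 0.34 and was still called (edgeR adjusted p = 0.0325). Against 3 days the log2 fold change at 12 weeks was 0.81 (SE 0.168, edgeR adjusted p = 0.00075), with 6 of 6 libraries above the 3 day mean. These groups overlapped too, with 3 day replicate 3 at 269 CPM above 12 week replicate 1 at 250 CPM. The comparison called 16% of genes higher. The log2 fold change was 0.56 without 12 week replicate 3 (edgeR adjusted p = 0.00099). Between 3 days and 1 day the log2 fold change was -0.22 (SE 0.167, 95% interval -0.57 to 0.12; edgeR adjusted p = 0.533), in a comparison that called 2.74% of genes in either direction. By group mean the order was therefore 12 weeks, 1 day, 3 days and sham, and in that order only the step from 1 day to 12 weeks passed the test between neighbours.

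Lcn2, the siderophore-binding acute phase gene, was higher than in sham at 1 day and at 12 weeks, and not by test at 3 days. Sham libraries lay close together, between 3.0 and 4.49 CPM with a median of 3.72 CPM, on counts of 94 to 314. At 1 day the lowest library had 5.44 CPM, the median was 9.11 CPM and the highest had 21.6 CPM. Every 1 day library was thus above every sham library, with replicates 4 and 5 the highest. The mean was 11.3 ± 6.44 CPM at 1 day against 3.77 ± 0.599 CPM in sham (SD, n = 6 each), a log2 fold change of 1.58 (SE 0.502) or 2.99-fold, with an edgeR adjusted p of 0.0233. In the comparison of 1 day with sham 6.9% of the genes tested were higher with no overlap, and 0.962% had a larger change in either direction. The call was lost when 1 day replicate 4 was left out (1.29, edgeR adjusted p = 0.0707), as it was when 1 day replicate 5 was (1.44, edgeR adjusted p = 0.0526). In limma-voom the value was 1.42 and missed the threshold too (adjusted p = 0.0574).

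At 3 days the Lcn2 libraries lay between 2.61 and 7.94 CPM with a median of 4.52 CPM and a mean of 4.74 ± 1.87 CPM (SD, n = 6). They spanned the whole sham range, with replicate 5 the highest and replicate 4 below every sham library. The log2 fold change against sham was 0.29 (SE 0.519, 95% interval -0.79 to 1.38; edgeR adjusted p = 0.754). These groups share a run of library numbers. All 6 of the 3 day libraries were below the 1 day mean, and the log2 fold change of 3 days against 1 day was -1.29 (SE 0.505), which was not called (edgeR adjusted p = 0.169). Without 12 week replicate 3, a library of neither group that enters the shared estimate of spread, the same value of -1.29 was called (edgeR adjusted p = 0.0412).

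At 12 weeks Lcn2 reached its highest levels and its widest spread. The lowest library had 6.57 CPM, the median was 13.3 CPM and the highest had 92.1 CPM, a 14-fold range on counts of 104 to 2690. All libraries at 12 weeks lay above all sham libraries, and replicate 3 stood far above the next, replicate 6 at 30.5 CPM. The mean was 27.2 ± 33 CPM (SD, n = 6), and 14.2 ± 9.87 CPM over the 5 libraries without replicate 3. Against sham the log2 fold change was 2.85 (SE 0.516), or 7.21-fold, with an edgeR adjusted p of 0.000353. With all libraries in the fit, this was the rise ranked 17 among the 15065 genes tested. Of all genes tested, 11.3% were called higher in this comparison and 4.38% were higher with no overlap. Without 12 week replicate 3 the log2 fold change was 1.93 and was called as well (edgeR adjusted p = 0.000674).

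**Figure D2:**
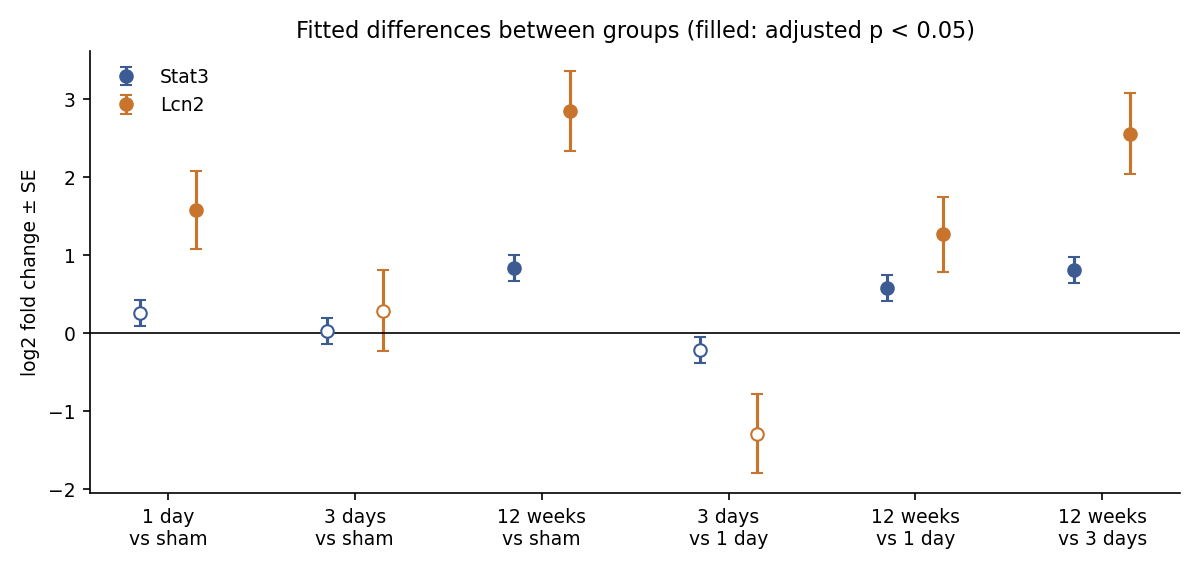
Fitted log2 fold change of Stat3 and Lcn2 in the 6 comparisons between groups, with bars of 1 standard error; filled points have an edgeR adjusted p under 0.05. Both genes are filled in the 3 comparisons that hold 12 weeks, and Lcn2 alone is filled at 1 day against sham.

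Lcn2 at 12 weeks was also higher than at 3 days, with a log2 fold change of 2.56 (SE 0.517; edgeR adjusted p = 0.000581) and 6 of 6 libraries above the 3 day mean. Without 12 week replicate 3 this value was 1.63 (edgeR adjusted p = 0.00205). The groups overlapped, since the highest 3 day library exceeded the lowest 12 week ones. Against 1 day the log2 fold change was 1.27 (SE 0.479), with an edgeR adjusted p of 0.0427 and only 3 of 6 libraries above the 1 day mean. Without 12 week replicate 3 it was 0.35 (edgeR adjusted p = 0.496). It was not called either with limma-voom (0.83, adjusted p = 0.144), with only those 2 groups in the fit (1.27, edgeR adjusted p = 0.128), or without any single library among 1 day replicates 1, 2, 3 and 6 and 12 week replicate 6 (1.13 to 1.23, edgeR adjusted p from 0.0669 to 0.0921). By group mean the order of Lcn2 was the same as that of Stat3, 12 weeks, 1 day, 3 days and sham. The step from 3 days to 1 day and the step from sham to 3 days did not pass the test, and the step from 1 day to 12 weeks passed it with all libraries in the fit but not in the settings just named.

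A2m, the protease inhibitor, was near the limit of detection in every group. Its counts were 0 to 6 per library in sham, 0 to 23 at 1 day, 0 to 10 at 3 days and 0 to 14 at 12 weeks. A floor of 3 counts corresponded to 0.042 to 0.19 CPM, depending on the library. In sham 4 of 6 libraries were above 3 counts, as were 4 at 1 day, 2 at 3 days and 3 at 12 weeks, and each group had at least 1 library at 0. The mean level was 0.0864 ± 0.0542 CPM in sham, 0.193 ± 0.187 CPM at 1 day, 0.107 ± 0.116 CPM at 3 days and 0.133 ± 0.179 CPM at 12 weeks (SD, n = 6 each). The highest library was replicate 1 at 1 day, with 0.544 CPM, and replicate 3 at 12 weeks, with 0.479 CPM, while the groups overlapped throughout.

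A2m was tested by itself, since it had not passed the filter. The difference in mean level from sham was 0.107 CPM at 1 day (two-sided exact permutation p = 0.197), 0.021 CPM at 3 days (exact permutation p = 0.76) and 0.0468 CPM at 12 weeks (exact permutation p = 0.732). Adjusted over the 6 comparisons each p was 0.76, and 6 libraries against 6 cannot go below 0.00216. The differences from sham became 0.0369 CPM at 1 day without replicate 1 (exact permutation, adjusted p = 0.95), -0.0225 CPM at 3 days without replicate 3 (exact permutation, adjusted p = 0.683) and -0.0223 CPM at 12 weeks without replicate 3 (exact permutation, adjusted p = 0.691), so that the last 2 changed sign. In an edgeR fit with no filter the log2 fold change at 1 day was 1.24 (SE 0.798, adjusted p = 0.322). Pooled over a group, the counts gave 0.0746 CPM in sham (21 counts, exact Poisson 95% interval 0.0462 to 0.114) and 0.185 CPM at 1 day (56 counts, 0.14 to 0.24). These intervals cover counting error only, and they assume that single counts are independent fragments, which they need not be. The 1 day sum owes 23 of its counts to replicate 1. A difference in A2m was not detectable at this depth against the spread between libraries.

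The spread of Stat3 and Lcn2 between libraries differed by group. The SD of log2 CPM for Lcn2 was 0.23 in sham, 0.79 at 1 day, 0.55 at 3 days and 1.45 at 12 weeks. At 12 weeks 99.3% of the genes tested had a smaller SD than Lcn2, against 66.3% in sham. This share was 97.2% at 1 day and 86% at 3 days. For Stat3 the SD was 0.11 in sham, 0.24 at 1 day, 0.17 at 3 days and 0.52 at 12 weeks, where 81.2% of genes had a smaller SD. The median SD over all genes tested moved from 0.16 in sham to 0.23 at 12 weeks. Replicate 3 carried much of the 12 week values: over the other 5 libraries the SD was 0.91 for Lcn2 and 0.30 for Stat3, with 96.2% and 68.5% of genes below them and a median of 0.19.

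Within the 12 week group the libraries fell in much the same order for all 3 genes. Libraries with more Stat3 had more Lcn2, with Pearson's r = 0.921 on the log2 scale (exact permutation p = 0.0153) and Spearman's rho = 0.886 (exact permutation p = 0.0333). Adjusted over the 12 relations computed, 3 pairs of genes in 4 groups, these p-values were 0.0611 and 0.133, so that neither passed 0.05. With the 2 libraries farthest from the median of Stat3 left out, r over the other 4 was 0.6. For Stat3 and A2m at 12 weeks r was 0.963 (exact permutation p = 0.00556, adjusted p = 0.0611) and rho 0.928 (exact permutation p = 0.0222, adjusted p = 0.133), and r was 0.887 without the 2 farthest libraries. For Lcn2 and A2m r was 0.902 (exact permutation p = 0.0139, adjusted p = 0.0611) and rho 0.899 (exact permutation p = 0.0278, adjusted p = 0.133), and r was 0.629 without the 2 farthest. A2m takes part in these relations with at most 14 counts in a library. In 2 of the 6 libraries at 12 weeks it had 0 counts, so that the added 0.05 CPM alone set its log2 value. No relation of A2m passed 0.05 after adjustment.

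**Figure D3:**
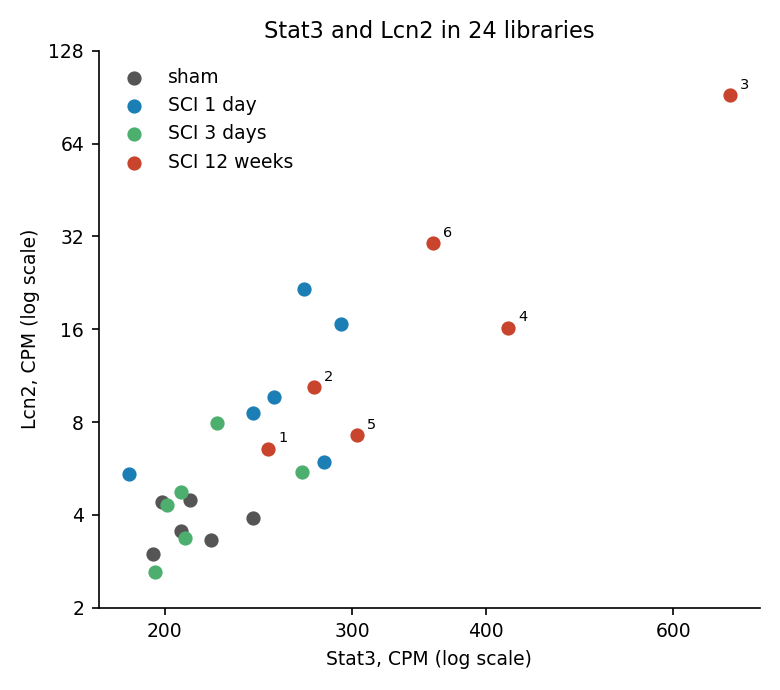
Lcn2 against Stat3 in each of the 24 libraries, in CPM on log scales, coloured by group; the 12 week libraries carry their replicate number. The sham libraries form a tight group at 195 to 242 CPM of Stat3 and 3.0 to 4.49 CPM of Lcn2, and 12 week replicates 3, 4 and 6 extend to the upper right.

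In the other groups the correlation of Stat3 and Lcn2 was lower. It was r = 0.579 at 1 day (exact permutation p = 0.233, adjusted p = 0.517) and r = 0.572 at 3 days (exact permutation p = 0.251, adjusted p = 0.517). In sham it was r = 0.148 (exact permutation p = 0.785, adjusted p = 0.942). The matching values of rho were 0.543, 0.771 and 0.257 (exact permutation p = 0.297, 0.103 and 0.658; adjusted p = 0.713, 0.308 and 0.988). Without the 2 farthest libraries r was -0.0171, 0.529 and -0.638. The relations of A2m took either sign outside the 12 week group. With Stat3 it gave r = -0.524 among sham libraries, r = -0.167 at 1 day and r = 0.562 at 3 days (exact permutation p = 0.301, 0.693 and 0.274; adjusted p = 0.517, 0.924 and 0.517), and rho was -0.0286, -0.143 and 0.257 (exact permutation p = 1, 0.803 and 0.658; adjusted p = 1, 1 and 0.988). Without the 2 farthest libraries r was 0.497, -0.333 and 0.561. With Lcn2 its r was -0.0106, 0.098 and -0.275 in the same order (exact permutation p = 0.981, 0.889 and 0.632; adjusted p = 0.981, 0.97 and 0.924), and rho was -0.0286, -0.0286 and -0.257 (exact permutation p = 1, 1 and 0.658; adjusted p = 1, 1 and 0.988). The values of r without the 2 farthest were -0.4, -0.184 and 0.306. The difference in r between groups was not tested.

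Over all 24 libraries, as a description in which group differences and library scaling are shared by all genes, the correlation of Lcn2 with Stat3 was 0.883. Among 11513 other genes with a mean log2 CPM of at least 1, Stat3 ranked 3 in likeness to Lcn2, and Lcn2 ranked 26 in likeness to Stat3. The correlation was 0.79, and the ranks 7 and 23, over the 23 libraries other than 12 week replicate 3. The gene most like Lcn2 was ENSRNOG00000031312, whose symbol is not paired with its ID in the sources used here (r = 0.906 over 24 libraries, and 0.857 without 12 week replicate 3). It was picked for this likeness over the same libraries, so its levels are a description. Its level was 19.3 ± 2.24 CPM in sham, 29.7 ± 3.83 CPM at 1 day, 24.2 ± 4.76 CPM at 3 days and 44.5 ± 13.6 CPM at 12 weeks (SD, n = 6 each).

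**Figure D4:**
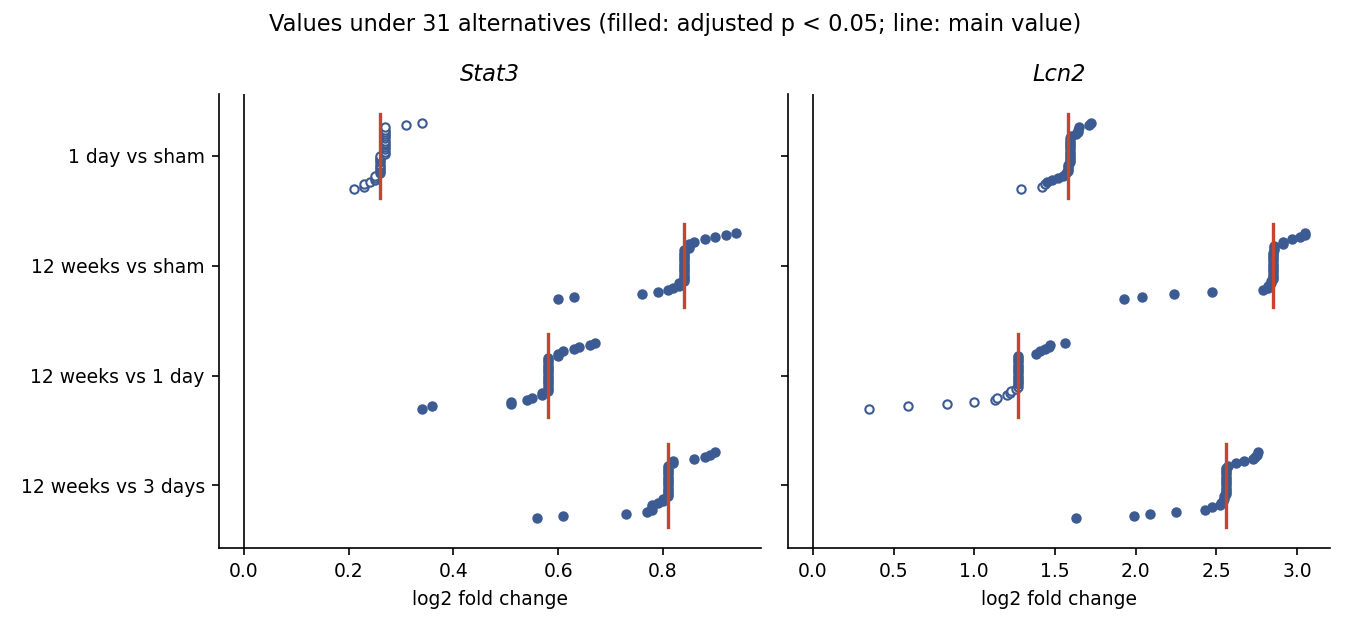
Log2 fold changes of Stat3 and Lcn2 in 4 comparisons under 31 alternative settings each, including every library left out in turn; the line is the value with all libraries and filled points have an adjusted p under 0.05. The values against sham at 12 weeks stay filled, while Lcn2 at 12 weeks against 1 day extends down to 0.35 with open points.

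Counted over the tested members, 1 of 2 was called higher at 1 day, neither at 3 days and both at 12 weeks, each against the same sham libraries. The median log2 fold change of these 2 genes was 0.92, 0.16 and 1.85 in that order, where the median over all genes tested was within 0.01 of 0. Of all genes tested, 11.9% were called higher at 1 day, 8.88% at 3 days and 11.3% at 12 weeks.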

How the data were processed

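Gene expression was measured in 24 ventricular libraries, which per the labels' protocols were depleted of ribosomal RNA, strand-specific and sequenced as paired ends. The deposited values are raw counts per gene; per the submitters' processing notes the authors used FastQC 0.12.1, STAR 2.7.11a and featureCounts 2.0.6 with build mRatBN7.2. How strand and shared reads were handled in counting, and which annotation release was used, is not given in the sources used here. Reads of genes that overlap, on either strand, cannot be told apart. The 26166 lines hold 23098 gene IDs, and the 781 IDs on more than 1 line, with identical counts, were used once.

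Counts were fitted in R 4.3.3 with edgeR 4.0.16: filterByExpr by group (minimum count 10), TMM scaling, 1 term per group over all 24 libraries (20 residual degrees of freedom), and the quasi-likelihood F test, two-sided. Benjamini-Hochberg adjustment ran over 15065 genes, and a gene is called at an adjusted p under 0.05. Standard errors were obtained by dividing the fold change by the root of F. The fit was tested on simulated counts, and the permutation test on fixed values with known answers. In the 3 comparisons with sham the fit recovered 46.3 to 71.6% of simulated 1.5-fold changes and 93.9 to 98.5% of 4-fold changes. False calls numbered 2 to 13 among 151 to 180 calls. The simulated spread followed the trend over all genes, so it does not describe a gene as variable as Lcn2. A2m, which did not pass the filter, was compared by exact permutation of mean CPM over 924 arrangements, a test chosen after the data were seen. Relations within groups used log2(CPM + 0.05) and 720 pairings; the spread and the likeness used log2 CPM with a prior count of 2. Alternatives were RLE size factors, DESeq2 1.42.0, limma-voom (limma 3.58.1), no filter, only the groups compared, a replicate block and each library left out, plus limma-voom with library weights and the spread and likeness without 12 week replicate 3, added after the data were seen.

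Counts from 1 to 200 were even in 58.1 to 61.1% of cases per library, so single counts need not be independent fragments. Replicates of a group differed beyond sampling noise in each of the 60 pairs (chi-square per degree of freedom 12.6 to 109). The members and lists were chosen with earlier results of these data known. The named genes are the members, all of them, and the tested gene most like Lcn2; the rule's gene most like Socs3, the pathway list and the marker lists need values or symbols not used here and were not analysed. The gene table used for symbols, assembly GRCr8, matched 0 of the IDs.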

Additional observations from a re-analysis of the deposited data

Results flagged for a closer look

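In 3 of the 12 sets of a gene and a group, a single library stood apart by Dixon's criterion, applied to CPM. The criterion's chance rate of about 1 in 20 sets holds for normally distributed values. Whether the CPM values are so distributed was not tested, and the criterion was not applied to log2 CPM. An excess over chance was therefore not established. Lcn2 in 12 week replicate 3 had 92.1 CPM, with a gap to the next library of 0.72 of the group's range. A2m in the same library had 0.479 CPM, with a gap of 0.724 of the range, and A2m in 1 day replicate 1 had 0.544 CPM, with a gap of 0.653. The critical value for 6 libraries is 0.625. The sets share libraries and are not independent.

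The difference from the sham libraries was not the same at all times, by direct test of the injured groups (edgeR, Benjamini-Hochberg). For Stat3 it was larger at 12 weeks than at 1 day by 0.58 on the log2 scale and larger than at 3 days by 0.81. For Lcn2 it was larger at 12 weeks than at 1 day by 1.27 and larger than at 3 days by 2.56. Each time shares the same sham libraries, so these are the differences between the injured groups themselves. The first value for Lcn2 was not called in 11 of 31 alternative settings, among them the fit without 12 week replicate 3.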

How the results depend on the processing

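Stat3 and Lcn2 in 6 comparisons gave 12 log2 fold changes, each under 31 alternatives. Of the 372 values, 355 kept their direction and side of the threshold, 14 lost a call, 2 gained one and 1 changed sign. The rises of both genes at 12 weeks against sham and against 3 days, and of Stat3 against 1 day, were called under all 31. At 1 day against sham, Stat3 was called with only those groups in the fit (0.27), and Lcn2 was not called with limma-voom (1.42); leaving out a library gave 1.29 to 1.72 for Lcn2. Lcn2 at 12 weeks against 1 day was not called with limma-voom (0.83), library weights (0.59), no filter (1.26), only those groups (1.27) or the replicate block (1.00), and ranged from 0.35 to 1.56 with a library left out. With a library left out, Lcn2 at 3 days against 1 day ranged from -1.47 to -1.0 and Stat3 at 3 days against sham from -0.03 to 0.08. A2m differences with a library left out ranged from 0.0369 to 0.146 CPM at 1 day, from -0.0225 to 0.0424 CPM at 3 days and from -0.0223 to 0.0735 CPM at 12 weeks against sham, from -0.129 to 0.00997 CPM at 12 weeks against 1 day, from -0.0433 to 0.0693 CPM against 3 days, and from -0.129 to -0.0159 CPM at 3 days against 1 day, with no adjusted p under 0.05. The cause of these moves was not tested. RLE scaling changed no call, no relation between members and no count of groups that do not overlap. The count of all genes called at 3 days against 1 day, 413, was 170 without 1 day replicate 5 and 953 with library weights. Replicate numbers are shared by the groups, but deviations of same-numbered libraries correlated at -0.178 to 0.151 over 36 pairs, 4 of them over 0.1. In 6 of the 36 the best match, chosen among 6 libraries, had the same number. These values show no strong pairing by number, but cannot show that same-numbered libraries have nothing else in common. The replicate block changed no other call of Stat3 or Lcn2. Depth limits A2m, with 0 to 23 counts a library.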
